A study of Arabidopsis thaliana with 30 samples.

Results

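A group of 22 Arabidopsis thaliana genes was close to silent in the wild-type leaves sequenced beside hda6 under 12 h days, was read in every hda6 library of plants grown under 12 h days, and was nearly lost again in hda6 plants grown under 16 h days. The genes were chosen from the deposited counts. Each had at most 5 counts over the 3 wild-type 12 h libraries, at least 20 counts in each of the 3 hda6 12 h libraries, and at most 10 counts over the 3 hda6 16 h libraries. Of 32548 nuclear gene identifiers, 118 met the first 2 conditions. Of these 118 genes, 22 also met the third and are described here, 60 had at least 20 counts in each hda6 16 h library, and 36 lay between. Counts in those 9 libraries chose the members, so they are given as a description with no test.

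HDA6 is a histone deacetylase of the RPD3 class. It works with the DNA methyltransferase MET1 to keep transposons, repeats, ribosomal RNA genes and some protein-coding genes silent, and its loss lets such sequences be transcribed. In leaves it has also been linked to flowering time and to stress and hormone responses.

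The study measured transcript levels by RNA sequencing in leaves at bolting of the ecotype Col-0, without heat, in 10 groups of 3 libraries. At a 12 h day length the groups were wild type, the cue1 mutant and the hda6 mutant, and, as a separate set, the sal1 mutant with its own wild type. At 16 h they were wild type, cue1 and msh1, and, as a separate set, hda6 with its own wild type. CUE1 is a plastid phosphoenolpyruvate translocator, SAL1 a phosphatase of a plastid-to-nucleus retrograde signal, and MSH1 a MutS homologue of plastids and mitochondria. No source used here names the mutant alleles. The replicates of a condition were full siblings per the series' design text. Counts summed over genes came to between 32306939 and 33747006 a library in the set that holds hda6 at 12 h, and to between 14417942 and 22334743 in the remaining sets. The share of reads assigned to no gene was 2.58% to 5.78% in that first set and 48.0% to 49.6% in the others. That difference and the set cannot be told apart, so levels are compared by test only within a set. The HDA6 transcript itself was at 24.5 to 25.8 CPM (counts scaled by 1e6 over the library size) in the hda6 12 h libraries against 27.6 to 28.7 in wild type, and at 15.4 to 17.4 CPM in hda6 at 16 h against 22.4 to 28.2 in its wild type. It was thus below every wild-type library of its own set at both day lengths, but present in all.

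The 250 bases before the annotated start are shown for 5 members whose gene models have a leader before the coding sequence, so that the window lies upstream of it. The first 3 were also read in sal1, and the last 2 were not. Sequences run 5′ to 3′ on the gene's strand, from the RefSeq assembly TAIR10.1, with CG dinucleotides, the sites MET1 maintains, in capitals.
WAKL5 (chr1:5535516-5535765, plus strand): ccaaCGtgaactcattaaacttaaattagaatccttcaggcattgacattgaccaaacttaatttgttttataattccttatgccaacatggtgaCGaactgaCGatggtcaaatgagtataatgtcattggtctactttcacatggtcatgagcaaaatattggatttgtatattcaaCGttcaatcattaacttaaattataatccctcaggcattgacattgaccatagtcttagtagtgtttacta
PDE337 (chr1:25662277-25662526, minus strand): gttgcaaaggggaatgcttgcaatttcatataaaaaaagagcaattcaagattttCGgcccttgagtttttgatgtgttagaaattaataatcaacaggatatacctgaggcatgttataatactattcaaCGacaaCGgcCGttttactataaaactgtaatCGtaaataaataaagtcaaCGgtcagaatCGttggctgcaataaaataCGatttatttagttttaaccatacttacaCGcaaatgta
ADPG1 (chr3:21285942-21286191, minus strand): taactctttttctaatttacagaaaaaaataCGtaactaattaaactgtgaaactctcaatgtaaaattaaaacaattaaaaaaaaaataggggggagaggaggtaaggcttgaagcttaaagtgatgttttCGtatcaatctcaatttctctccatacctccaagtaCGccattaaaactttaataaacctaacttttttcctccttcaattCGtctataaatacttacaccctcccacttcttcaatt
AT4G00250 (chr4:113983-114232, minus strand): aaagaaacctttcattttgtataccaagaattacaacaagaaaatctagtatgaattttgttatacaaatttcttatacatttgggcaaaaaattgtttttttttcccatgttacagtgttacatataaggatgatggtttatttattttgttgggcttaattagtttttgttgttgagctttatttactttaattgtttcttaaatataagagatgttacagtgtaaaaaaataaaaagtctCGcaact
AT3G43833 (chr3:15687304-15687553, plus strand): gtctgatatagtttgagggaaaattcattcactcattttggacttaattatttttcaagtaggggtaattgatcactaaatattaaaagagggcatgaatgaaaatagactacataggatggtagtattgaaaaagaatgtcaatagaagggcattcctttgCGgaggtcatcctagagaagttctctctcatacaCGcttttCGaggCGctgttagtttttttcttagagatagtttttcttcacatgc

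Over the 22 members the window held a median of 4 CG sites, with a range from 0 in AT2G16340 to 17 in AT4G04402. The median was 5.5 in the 60 genes on in hda6 at both day lengths and 5 over all nuclear genes. The motif TATAAA, searched on both strands, occurred in 13 of 22 windows (59.1%), in 26.7% of the 60 and in 46.1% of all nuclear genes. In the ADPG1 window shown above it starts 33 bases before the gene start. CACGTG occurred in 2 windows (9.09%, against 5.90% of all genes), TTGACC in 2 (9.09% against 11.8%) and TTGACT in 5 (22.7% against 18.7%). A match is a description of the letters and no more. In 12 of the 20 coding members the model starts at the coding start, so the window may hold an unannotated leader, and in 4 members it overlaps an exon of another gene.

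By annotation 20 members are protein-coding and 2, AT3G05735 and AT4G07250, are long non-coding RNAs. The products are mixed. Cell wall and cell surface proteins are WAKL5 (a wall-associated kinase-like protein), ADPG1 (a polygalacturonase that loosens cell walls where pods and anthers open), AT5G46960 (an invertase and pectin methylesterase inhibitor), LRE (LORELEI, a GPI-anchored protein needed in the female gametophyte for pollen tube reception) and RHS17 (root hair specific, of the O-fucosyltransferase family). Signalling and regulatory proteins are PDE337 (with a VQ motif), AT4G04110 (a TIR domain protein), AT4G04402 (a two-component phosphorelay mediator), AT4G08260 (a protein phosphatase 2C), AGL96 (a MADS-box protein) and AT4G00250 (a storekeeper-related transcriptional regulator). AT1G36240 is a ribosomal protein of the L7Ae/L30e family and AT4G03950 a nucleotide/sugar transporter. The remaining 7 coding members are uncharacterized.

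**Figure D1:**
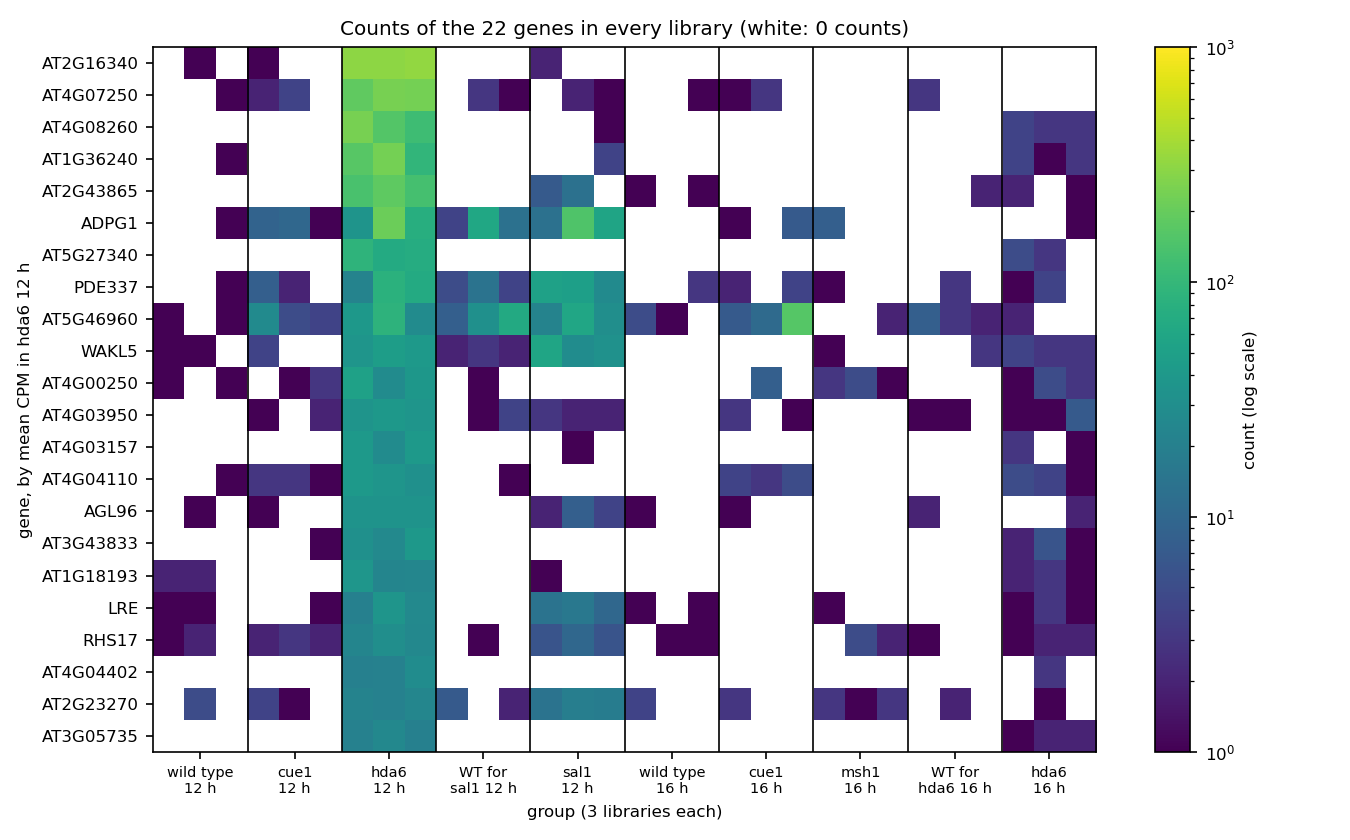
Counts of the 22 genes (rows, by mean CPM in hda6 12 h) in each of the 30 libraries (columns, in 10 groups), on a log colour scale with 0 in white. The hda6 12 h columns are filled in every row, the hda6 16 h columns hold low counts in 20 of 22 rows, and 8 genes had 20 or more counts over the 3 sal1 12 h libraries.

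In hda6 at 12 h the mean level of a member ran from 0.681 to 9.69 CPM, with a median of 1.20. The genes at the top were mostly uncharacterized or non-coding. AT2G16340, the highest, had 307, 307 and 325 counts in hda6 at 12 h, or 9.69 ± 0.366 CPM (SD, n = 3), and 0, 1 and 0 in wild type. The long non-coding RNA AT4G07250 had 184, 240 and 238 counts in hda6 and 0, 0 and 1 in wild type. All hda6 libraries lay far above all wild-type libraries for both genes, as the selection requires of every member.

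AT4G08260, the phosphatase, had 240, 158 and 118 counts in hda6 at 12 h and 0 in the 3 wild-type libraries. AT1G36240 had 165, 238 and 94 counts against 0, 0 and 1. AT2G43865, uncharacterized, had 137, 181 and 129 counts against 0 in each. These 5 genes were the members at or above 4 CPM, and 15 members were under 2 CPM. Per kilobase of exon, AT2G16340 and AT4G07250 also led, with mean levels of 34.0 and 30.9 CPM per kb, and AT1G36240 followed with 15.1. RHS17 was lowest on that scale with 0.419 CPM per kb.

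For 14 members with a count in wild type at 12 h, the ratio of hda6 to wild type ran from 13.5 (AT2G23270) to 943 (AT2G16340), after scaling by library size. The 8 members at 0 in wild type were at least 22.1 (AT3G05735) to at least 173 (AT4G08260) times higher, taking a floor of 3 counts over the group. With so few wild-type counts the ratios are loosely bounded: the 95% counting interval was 5.49 to 42.8 for AT2G23270 and, with 1 wild-type count, 169 to 37300 for AT2G16340. Just inside the limit on hda6 counts were AT3G05735, AT4G04402 and LRE, each with 20 in their lowest library, and just outside were AT1G08997, AT3G42060 and AT1G06987 with 19, 18 and 17. At the wild-type limit AT2G23270, AT1G18193 and RHS17 had 5, 4 and 3 counts over 3 libraries, and AT2G04190, NCED2 and AT4G28460 were outside with 7 each. Of all 32548 nuclear genes, 20.8% had every hda6 12 h library above every wild-type library. Nothing is read from the members' count beside it, since this contrast chose them.

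The 3 hda6 12 h libraries differed more for some members than for others. The ratio of the highest to the lowest library had a median of 1.43, was under 1.5 for 13 members and over 2 for 5. AGL96, with 35 counts in each library, was the most even, at 1.01. ADPG1 was the least even, at 5.89, with 36, 212 and 77 counts. PDE337 followed the same order less widely, with 22, 82 and 68 counts, and AT5G46960 had 40, 87 and 28. Replicate 2 held the highest level for 11 of the 22 members, replicate 3 for 6 and replicate 1 for 5. Whether the wild type has such spread for these genes cannot be seen at its counts of 0 to 5.

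**Figure D2:**
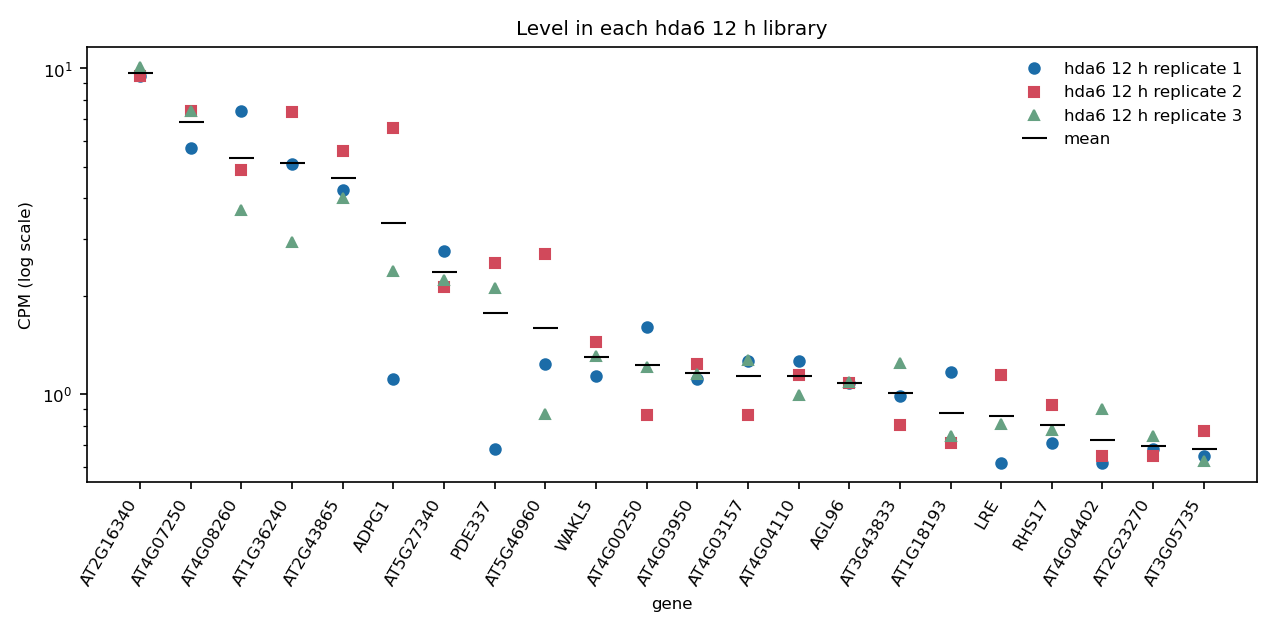
Level of each of the 22 genes in CPM (log axis) in the 3 hda6 12 h libraries, with the mean as a bar. ADPG1, PDE337, AT5G46960, AT1G36240 and AT4G08260 spread over more than 2-fold, while AGL96 had 35 counts in every library.

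At 16 h the members were low in hda6 but mostly not absent. The rule capped these counts at 10, so the values are a description. Over the 22 genes the 3 hda6 16 h libraries held 115 counts, against 31 in their wild type, where the 12 h level of each gene at the 16 h library sizes would have given 2234. The mean was higher in hda6 than in its wild type for 18 members. For 11 members every hda6 16 h library lay above every wild-type library, and 9.75% of all nuclear genes did so. Nothing is read from that count, since hda6 16 h values entered the selection. AT4G08260 had 4, 3 and 3 counts, AT4G04110 had 5, 4 and 1, AT3G43833 had 2, 6 and 1 and AT1G36240 had 4, 1 and 3, each against 0 in the 3 wild-type libraries. WAKL5 had 4, 3 and 3 against 0, 0 and 3. By these counts the name of genes on at 12 h only holds as a level under the cap and not as absence at 16 h.

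The 2 members that led at 12 h had no count in hda6 at 16 h. AT2G16340 and AT4G07250 were at 0 in all 3 hda6 16 h libraries, where their 12 h level would have given 406 and 286 counts. With a floor of 3 counts, their level was at least 135 and at least 95.3 times lower than at 12 h. These bounds cover counting error only and not a difference between the sets. For the other 20 members the ratio of hda6 at 12 h to hda6 at 16 h ran from 4.70 (AT3G43833) to 140 (ADPG1), with a median of 11.0. The members just inside the limit at 16 h were WAKL5, AT4G04110 and AT4G08260 with 10 counts, and AT2G14945, AT3G16590 and AT3G18330 lay just outside with 11, 12 and 12. The 16 h libraries are the smaller ones and come from another set, so a limit on raw counts is looser at 16 h. With counts scaled to the hda6 12 h library size, 9 of the 22 genes met the rule.

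**Figure D3:**
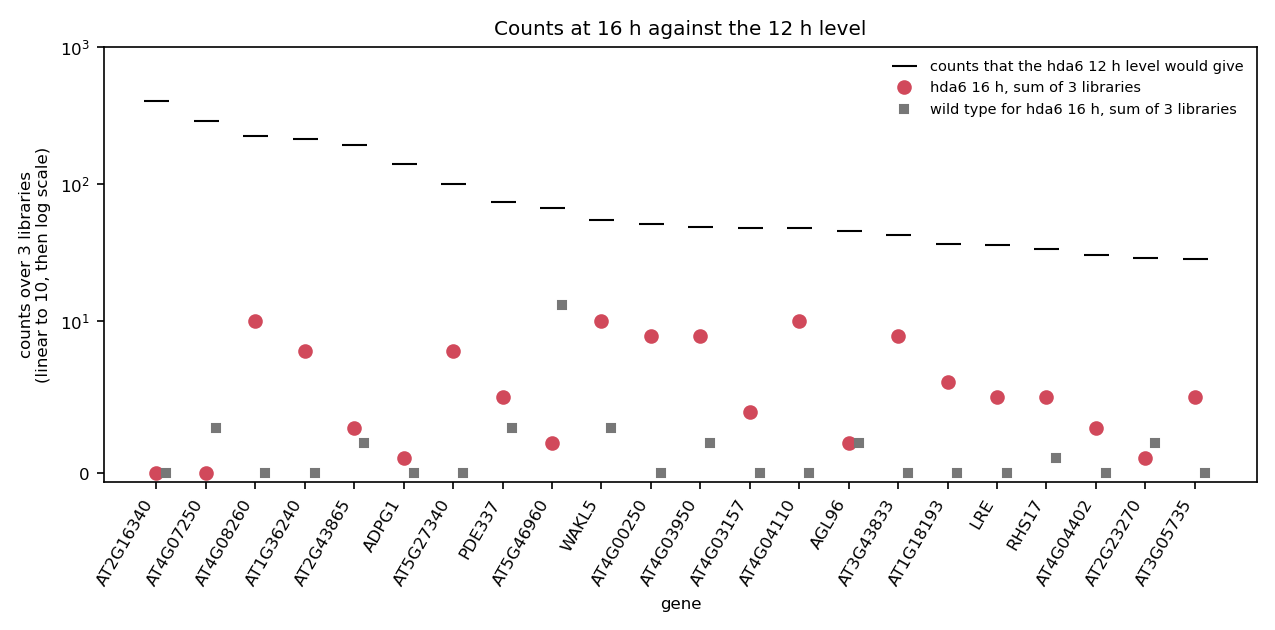
Counts over the 3 hda6 16 h libraries (red) and over their 3 wild-type libraries (grey) for each gene, with the counts that the hda6 12 h level would give at the same library sizes (bars), on an axis that is linear to 10 and logarithmic above. The bars run from 28.5 to 406, and every red point is at 10 or below.

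In the other genotypes most members stayed at or near 0. In 14 of 22 members no group other than hda6 at 12 h had 20 or more counts over its 3 libraries, and 6 members had no count in any library of any of the wild-type groups. The exceptions lay mainly in the sal1 set, which the selection did not use. Over the sal1 libraries 8 members had 20 or more counts: WAKL5, PDE337, AT2G23270, AT2G43865, ADPG1, LRE, RHS17 and AT5G46960. The other 14 had between 0 and 14. PDE337, ADPG1 and AT5G46960 also had 20 or more counts over the libraries of the wild type for sal1. The 8 are 36.4% of the members. Of the 60 genes on in hda6 at both day lengths 18.3% had 20 or more counts over the sal1 libraries, and of all nuclear genes 69.4%.

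WAKL5 had 58, 29 and 33 counts in sal1 and 2, 3 and 2 in its wild type, or 1.57 ± 0.594 CPM against 0.121 ± 0.0399 (SD, n = 3 each). Every sal1 library was above every wild-type library. The log2 fold change was 3.70 with a standard error of 0.476, and edgeR's quasi-likelihood test gave a Benjamini-Hochberg adjusted p of 0.000738. PDE337 had 52, 50 and 27 counts in sal1 and 5, 14 and 4 in its wild type, again without overlap, and rose by a log2 fold change of 2.13 (standard error 0.543, edgeR adjusted p = 0.0142).

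These were 2 of the 5 members that had enough counts for that test. Of all 21845 genes tested in this set, 25% were called higher and 21.3% lower, so a call in sal1 is common. A gene silent in wild type passes the filter on low counts only through sal1. AT2G23270 had 14, 19 and 18 counts in sal1 and 7, 0 and 2 in its wild type, with a log2 fold change of 2.12 (standard error 0.755) and an edgeR adjusted p of 0.05, which did not pass the threshold. It did not overlap between the groups.

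LRE, RHS17 and AGL96 were too low for the test after the filter. LRE had 14, 16 and 10 counts in sal1 and 0 in each wild-type library, a level at least 10.4 times higher. RHS17 had 6, 10 and 6 counts against 0, 1 and 0, and AGL96 had 2, 8 and 4 against 0 in each. In all 3 genes the sal1 libraries lay above those of the wild type. In all, 6 of 22 members were without overlap and higher in sal1, beside 22.3% of all nuclear genes. DESeq2, run as an alternative with its own filter, called 5 members, namely WAKL5, PDE337, LRE, RHS17 and AGL96.

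ADPG1 varied within both groups of the sal1 set. It had 13, 150 and 56 counts in sal1 and 4, 62 and 13 in the wild type, so replicate 2 was highest in both, as it was in hda6 at 12 h, and the groups overlapped. The edgeR adjusted p was 0.383 at a log2 fold change of 1.15 (standard error 1.02). With the replicate number as a block, ADPG1 was called at 1.32 (standard error 0.327, edgeR adjusted p = 0.0189). The labels give no such pairing. The block was taken from these data, where same-numbered libraries of this set deviated together. The closest relative of ADPG1 by exon sequence is PGAZAT (a polygalacturonase annotated as ADPG2-like, 76.6% identical over 1267 bases). PGAZAT was also highest in replicate 2 of these groups. It had 261, 4300 and 3611 counts in hda6 at 12 h against 1, 4 and 3 in wild type. In the wild type for sal1 it had 79, 1079 and 117, and in sal1 1179, 2087 and 619. In sal1 its lowest library was replicate 3, where that of ADPG1 was replicate 1. In cue1 at 12 h PGAZAT had 357, 13 and 0 counts, and ADPG1 9, 10 and 1.

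AT5G46960, the inhibitor, was the member least tied to hda6. It had 8, 32 and 67 counts in the wild type for sal1 and 22, 59 and 30 in sal1, and a log2 fold change of -0.17 (standard error 0.616, edgeR adjusted p = 0.835). In cue1 at 16 h a single library held most of its counts, with 7, 11 and 163 against 5, 1 and 0 in wild type. A neighbouring copy, AT5G46950, is 93.5% identical over 598 bases, and how the authors' counting divided reads between them is not given, so its values are uncertain.

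**Figure D4:**
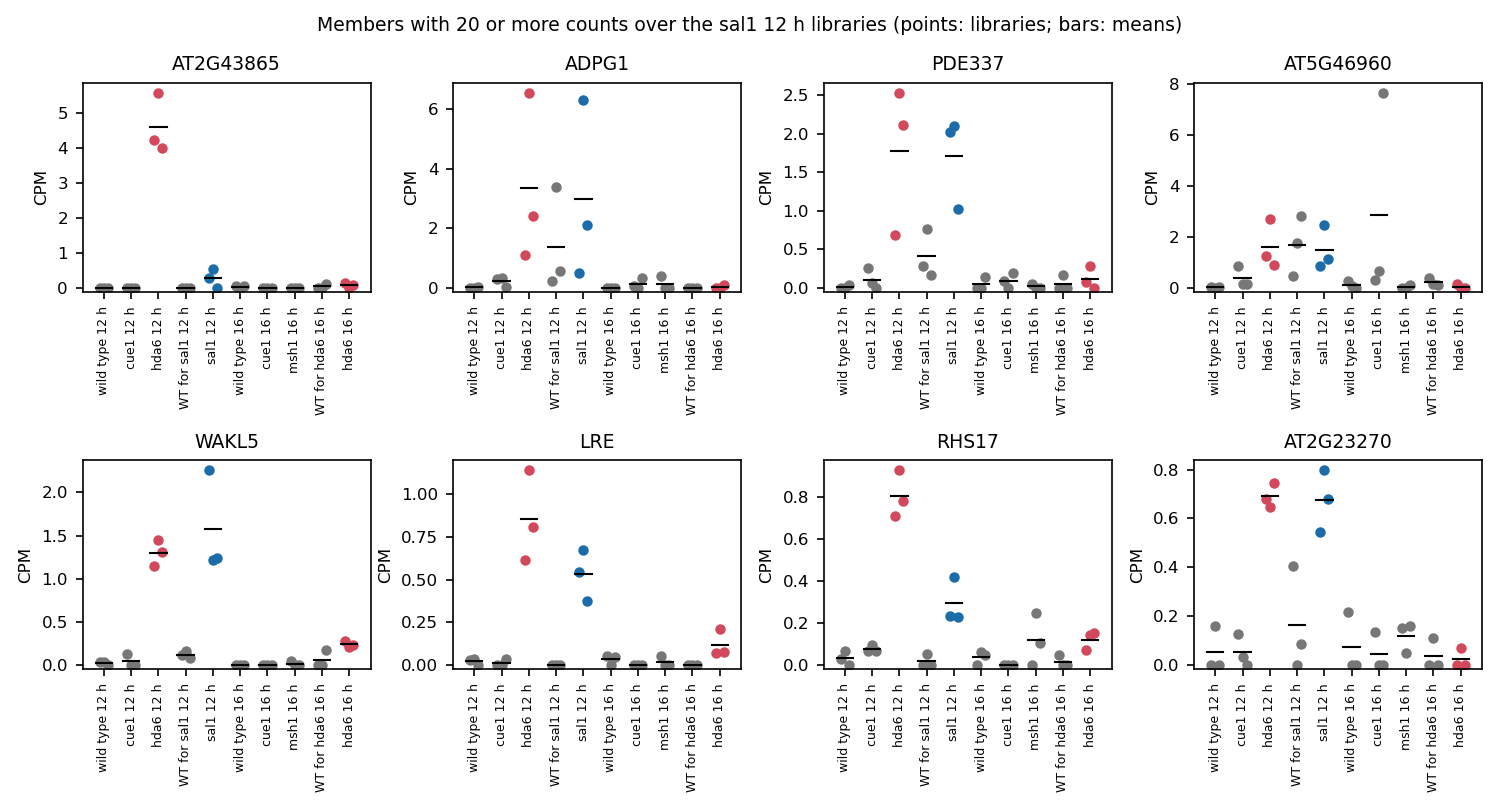
Level in CPM (linear axes that differ between panels) of the 8 members with 20 or more counts over the sal1 libraries, in each library (points) with group means (bars), for all 10 groups. hda6 is in red, sal1 in blue and the other groups in grey, and WAKL5 and PDE337 lie above their own wild type in every sal1 library.

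Levels in hda6 and sal1 at 12 h, which come from different sets and were not tested against each other, stood near each other for some of these genes. WAKL5 was at 1.30 ± 0.155 CPM in hda6 and 1.57 ± 0.594 in sal1, PDE337 at 1.78 ± 0.973 and 1.72 ± 0.605, and AT2G23270 at 0.692 ± 0.0503 and 0.674 ± 0.127 (SD, n = 3 each). For AT2G43865 they stood apart, at 4.61 ± 0.855 and 0.273 ± 0.273 CPM.

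Markers of other organs moved in the sal1 set as well. Of 17 pollen genes 6 of the 7 tested were higher in sal1. Of 10 tapetum genes 3 of 4 were, and of 13 floral organ genes 3 of 4. Of 7 root genes 2 of 3 were higher, and of 17 seed genes 1 of 4, while 5 of 6 leaf genes were lower. Of all genes tested in this set, 25% were higher and 21.3% lower. The remaining markers had too few counts for the test. A marker silent in the wild type passes the filter on low counts only through sal1. Nothing is therefore read from the shares of tested markers beside those of all genes. The summed pollen level was 36.1 to 44.8 CPM in sal1 against 16.5 to 18.1 in its wild type, the floral organ level 11.1 to 14.6 against 5.88 to 7.87, and the leaf level 4526 to 7713 against 10730 to 15030. The tapetum level was 11.8 to 12.6 CPM against 6.68 to 10.2. Its highest gene in both groups, LAP6, had a mean of 7.3 CPM in sal1 and 8.1 in the wild type. The seed level, 4.91 to 7.27 CPM against 3.54 to 5.51, and the root level, 9.54 to 33.4 against 15.1 to 31.5, overlapped between the groups. The pollen markers VGD1, MGH3 and GEX2 were at 0 in all libraries of both groups. The part of tissue makeup in the sal1 values of the members was not tested. In bulk leaves fewer cells of a type and less RNA per cell cannot be told apart.

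In hda6 at 12 h the summed pollen, tapetum, floral organ and seed levels lay above every wild-type library. The summed pollen level was 2.90 to 3.61 CPM against 1.92 to 2.45 in wild type, with 8 of 17 genes at 0 in hda6 and 9 in wild type, MGH3, DUO1 and VGDH1 in both. The tapetum level was 5.82 to 9.79 CPM against 4.17 to 5.15, with 1 gene at 0 in hda6 and 5 in wild type. The floral organ level was 3.02 to 4.54 CPM against 1.99 to 2.57, with 1 and 0 genes at 0. The seed level was 6.85 to 10.9 CPM against 1.78 to 3.17, with 8 and 7 genes at 0. A large part of the seed level in hda6 came from 1 gene, PHE1, with a mean of 4.07 CPM. The highest seed gene in wild type was FUS3, with a mean of 0.838 CPM. The root level was 12.2 to 25.5 CPM against 5.45 to 53.4, and the leaf level 13880 to 17140 against 14600 to 21920. By edgeR, 1 of 4 tested pollen genes, 2 of 5 floral organ genes and 2 of 3 seed genes were higher, where 22.4% of all genes tested were. The 1 tapetum gene and the 1 root gene that were tested were not called. A marker near 0 in wild type enters this test only through the mutant libraries of the set. Nothing is therefore read from the pollen, floral organ and seed shares. Of the leaf genes 1 of 6 was lower, where 19.6% of all were. Whether tissue makeup has a part in the 12 h values was not tested.

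The cue1 and msh1 groups gave no called member by edgeR. In cue1 at 12 h all 22 members entered the test, but only through the hda6 libraries of the same set, and the wild type that the rule capped is also the control, so the count is a description. None of the 22 was called, beside 1.3% of all genes called higher and 0.542% lower, and 4 had an unadjusted p under 0.05. DESeq2 called 1, AT5G46960, which had 27, 5 and 4 counts in cue1 and 1, 0 and 1 in wild type. ADPG1 with 9, 10 and 1 counts and AT4G04110 with 3, 3 and 1 were, with AT5G46960, the 3 members whose cue1 libraries all lay above the wild type, where 8.38% of all genes did.

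At 16 h no member had enough counts for the test in cue1 or msh1, so edgeR called 0 of 0 tested, none at an unadjusted p under 0.05, and DESeq2 called 0. AT4G04110 was without overlap in cue1 at 16 h, with 4, 3 and 5 counts against 0 in each wild-type library, as was AT5G46960; 9.12% of all nuclear genes were. AT4G04110 also had counts in all 3 hda6 16 h libraries. In msh1 the 22 members had 36 counts in all, against 21 in wild type, and AT4G00250, with 3, 5 and 1 against 0, was the 1 member without overlap, beside 15.8% of all nuclear genes. Among all genes tested, 3.34% were called higher and 3.42% lower in cue1 at 16 h, and 17.4% and 16% in msh1.

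The positions of the members fell into different kinds of surroundings. On chromosome 4 lay 9 of the 22 members (40.9%), where 15.1% of all nuclear genes and 20% of the 60 genes on at both day lengths lie. Within the 500 kb around each gene there was a median of 120.5 protein-coding genes and 5.5 pseudogenes for the members, 79 and 31 for the 60, and 136 and 3 for all nuclear genes. For 8 members the surroundings held 30 or more pseudogenes and 29 to 100 coding genes. These were AT1G36240, AT2G16340, AT3G05735, AT3G43833, AT4G03950, AT4G04110, AT4G04402 and AT4G08260. None of these 8 had more than 7 counts over the sal1 libraries. The 8 members with 20 or more counts in sal1 had 117 to 167 coding genes and 0 to 6 pseudogenes around them. The other 14 had 29 to 151 coding genes and 0 to 83 pseudogenes, and 4 of them, AT1G18193, AT4G00250, AT4G07250 and AGL96, also had 6 or fewer pseudogenes. The median distance to the nearest pseudogene was 51.6 kb for the 8 read in sal1 and 4.08 kb for the other 14. The split was seen in the data and has no test.

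**Figure D5:**
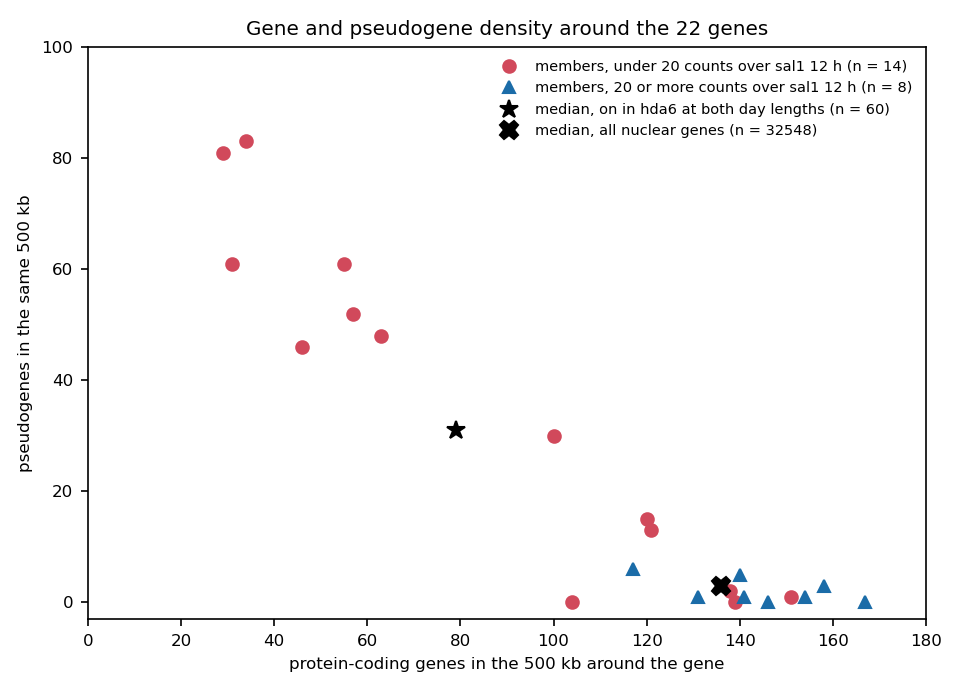
Protein-coding genes (horizontal axis) against pseudogenes (vertical axis) in the 500 kb around each of the 22 genes, with medians of the 60 genes on in hda6 at both day lengths and of all nuclear genes. The 8 members with 20 or more counts over sal1 (triangles) lie at 117 to 167 coding genes and at most 6 pseudogenes, and 8 of the other 14 (circles) lie at 30 or more pseudogenes.

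No member lay within 50 kb of another member, but 4 lay within 50 kb of another of the 118 genes. AT4G03157 (chromosome 4, 1396953 to 1397351, minus strand, TAIR10.1) is 0.169 kb from AT4G03156, a small GTPase-like gene. AT4G03157 had 41, 28 and 41 counts in hda6 at 12 h and 3, 0 and 1 at 16 h, and AT4G03156 had 103, 97 and 81 at 12 h and 21, 0 and 2 at 16 h. Both were lower at 16 h, and 21 of the 23 counts that placed the neighbour over the limit came from 1 library. AT4G04110 is 34.6 kb from OFP9, a transcriptional repressor, which had 718, 563 and 686 counts at 12 h and 301, 245 and 278 at 16 h, with 0 in the wild types of both sets. OFP9 thus had 245 or more counts in every hda6 16 h library, while AT4G04110 had 10 over all 3. AT4G08260 lies 25.4 kb from AT4G08190 and AT1G18193 lies 8.56 kb from AT1G05397, both genes between the classes.

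Near-identical copies limit what some counts mean. For 18 of 22 members a copy was found by aligning exon sequence, and for 4 of them it was over 95% identical: AT1G18193 to SADHU5-1 (98.7% over 231 bases), AT4G03157 to AT2G00380 (97.8% over 138), AT4G03950 to AT1G11595 (97.4% over 230) and AT2G43865 to AT1G19420 (96.1% over 329). The copies of these 4 members have no entry in the counts used here, so their own levels cannot be given. Whether reads of a copy were counted to its member was not tested, and the values of the 4 are uncertain in that respect. AT1G36240 is 89.1% identical over its 339 exon bases to AT3G18740, of the same ribosomal protein family, whose own level at 12 h was 94.1 CPM in wild-type and 99.8 CPM in hda6 leaves. Whether reads of the copy were counted to AT1G36240 was not tested. No member had an exon overlapped by a gene on the other strand.

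Beside the members, the genes of the silencing pathway in which HDA6 works were read from the same fits. The list held 36 genes of histone deacetylation, DNA methylation and demethylation and RNA-directed silencing, all tested. By edgeR 17 were lower and 0 higher in hda6 at 12 h, where 19.6% of all genes tested were lower and 22.4% higher. The median log2 fold change was -0.255 for the list and -0.0047 for all genes. The demethylase ROS1 fell from 74.9 ± 11.5 to 36.3 ± 4.27 CPM (log2 fold change -1.05, standard error 0.129, adjusted p = 0.000469). MET1, the CG methyltransferase, fell from 46.3 ± 6.43 to 22.6 ± 4.00 CPM (adjusted p = 0.000825). The histone demethylase IBM1 (log2 fold change -0.66), the histone methyltransferase SUVH5 (-1.80), the methylation reader VIM2 (-1.66) and the methyltransferase CMT2 (-0.42) fell too, at adjusted p of 0.000556, 0.0015, 0.00187 and 0.00221. HDA6 fell by 0.18 on the log2 scale (adjusted p = 0.0427), and this call was lost in each of the 6 fits that left out 1 library (highest adjusted p = 0.117).

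In hda6 at 16 h, 2 of the 36 were higher and 2 lower, where 4.49% of all genes tested were higher and 3.52% lower. VIM3 rose by 1.47 on the log2 scale (adjusted p = 2.28e-05) and VIM1 by 0.43 (adjusted p = 0.0221), a call lost in 4 of the 6 fits that left out 1 library (highest adjusted p = 0.135). HDA6 fell by 0.65 (adjusted p = 0.00136) and IBM1 by 0.92 (adjusted p = 0.000163). The difference between the day lengths was not tested, since the hda6 groups stand in different sets. In sal1, where some members were also read, 4 of the 36 were higher and 14 lower. Of all genes tested there, 25% were higher and 21.3% lower. Among the 14 were MET1 (log2 fold change -1.32) and ROS1 (-1.96), so their fall was not particular to hda6. IBM1, SUVH5, VIM2 and CMT2 were not called in sal1. In msh1 at 16 h the list went the other way, with 13 of the 36 higher, MET1 among them (log2 fold change 0.694), and 1 lower. Of all genes tested there, 17.4% were higher and 16% lower. In cue1 no gene of the list was called at 12 h, and 1 was higher at 16 h, where 3.34% of all genes tested were.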

How the data were processed

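RNA-seq of 30 leaf libraries was analysed from the counts per gene that the authors deposited, with a file for each library. Per the submitters' processing notes, the tools were cutadapt 2.8, Trim Galore 0.6.6 and STAR 2.7.10a, on the build TAIR10. No source used here names the counting tool, its strand setting or the library kit. The 5 totals that name no gene stayed out of library sizes and tests. Nuclear identifiers were matched to TAIR10.1 annotation. Members and gene lists were chosen with earlier results of these data known.

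Each set was fitted in R 4.3.3 with edgeR 4.0.16 (filterByExpr with a minimum count of 10, TMM, quasi-likelihood F test, Benjamini-Hochberg adjustment over all genes tested, calls at an adjusted p under 0.05), and checked on simulated data. The standard error is the absolute log2 fold change over the square root of F. CPM use TMM library sizes. Intervals (95%) and floors of 3 counts cover counting error only. Within groups, library pairs correlated at 0.989 to 0.997 and none were identical. Same-numbered libraries of the sal1 set deviated together (residual correlation 0.112 to 0.179 in all 3 pairs), so the pairing there comes from the data and the block is given where it changes a call. Copies were sought with BLAST 2.17.0. DESeq2 1.42.0, other scaling and filters, 1 model over all libraries, a replicate block and leaving out each replicate were alternatives. The named genes are silencing genes with the lowest adjusted p and members that are high in hda6, read in another group, called, or near a limit of the selection.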

Additional observations from a re-analysis of the deposited data

How the results depend on the processing

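The number of genes that met the selection depends on its limits: 52 with at least 10 and 6 with at least 40 counts in each hda6 12 h library, 8 with 0 wild-type counts, 13 with at most 5 counts at 16 h, and 9 with counts scaled to library size. Leaving out 1 replicate gave 18 to 34 genes, with 34 when hda6 12 h replicate 1 was left out. In sal1, where 2 members were called, 5 were called without a filter on low counts, 5 by DESeq2, 7 with all libraries in 1 model, and 2 to 4 with 1 replicate left out; 4 came without replicate 1 of its wild type. In cue1, where 0 were called, DESeq2 called 1 at 12 h. At 16 h the fit without a filter called 1, all libraries in 1 model 2, and leaving out 1 replicate 0 to 1, with 1 when cue1 replicate 1 was left out. In the silencing list, 17 genes were called at 12 h and 13 to 19 with 1 replicate left out. At 16 h, 4 were called, 7 without a filter, 7 with the replicate block, and 3 to 6 with 1 replicate left out. The labels give same-numbered libraries no shared origin. Among 24 same-numbered pairs, 6 correlated over 0.1, with a range of -0.469 to 0.179. In the sal1 set the block changed the call of no other member. A test of whether the cue1 effect differed with day length, chosen after seeing the data, covered 1 member, AT5G46960, and is not read, since its 12 h wild-type counts were capped by the selection and its groups come from different sets. WAKL5 and PDE337 kept their call in sal1 in every edgeR fit with 1 library left out, at adjusted p up to 0.00522 and 0.0462. Both pass the filter on low counts through the sal1 libraries, and these fits share libraries, so they add no separate support. The causes of these shifts were not tested, apart from the fewer or additional genes that a changed limit or filter admits by construction. Outside hda6, the low counts of most members limit what the tests can call: 5 of 22 entered the test in sal1 and 0 in cue1 and msh1 at 16 h.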
